A study of Homo sapiens with 9 samples.

Results

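The WNT pathway was followed through 56 genes in AsPC-1, an established human pancreatic adenocarcinoma line, after knockdown of STOML2, the gene for the mitochondrial inner membrane protein SLP-2. Members were chosen by name, with earlier results of these data known. They are the array rows whose single gene symbol is WNT or FZD followed by a number, begins with SFRP or DKK, or is 1 of a set of named co-receptors, regulators and effectors. The rule found 56 of the 17709 rows with 1 gene symbol, and the whole table holds 21448 rows. TCF7 and PORCN, which the rule also names, were not analysed here.

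The control cells carried the blank plasmid pBAsi-hU6 NEO, and the sh1 and sh2 cells carried the same plasmid with shRNA-1 or shRNA-2 of SLP-2, a short hairpin RNA that lowers the target's transcript. All groups were selected with Geneticin for 3 weeks and grown from a single colony, so each group is 1 clone and a difference between groups is also a difference between clones. Each group had 3 arrays, and no source used here says whether these came from separate cultures, so p-values reflect array-to-array spread within a clone and may hold technical error alone. STOML2 checked the labels, with a log2 signal of 13.67 ± 0.03 (SD, n = 3) in the control, 8.32 ± 0.12 in sh1 and 7.73 ± 0.34 in sh2.

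WNT proteins are secreted, lipid-modified signals that bind Frizzled (FZD) receptors together with the co-receptors LRP5 and LRP6, or with the receptors ROR1, ROR2 and RYK. In the absence of a signal, a destruction complex of AXIN, APC and the kinase GSK3B marks beta-catenin for degradation. With a signal, beta-catenin accumulates and joins TCF/LEF factors on DNA, a step in which the kinase TNIK acts as a partner. The ubiquitin ligases RNF43 and ZNRF3 remove Frizzled receptors from the cell surface, and R-spondins, bound to LGR receptors, hold those ligases back. In pancreatic cancer, mutated RNF43 is a known cause of dependence on WNT ligands.

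Members did not move as a block in either line. Of the 56 members, 7 were higher and 5 lower in sh1 than in the control, and 7 were higher and 6 lower in sh2, at an adjusted p under 0.05 in limma's moderated test (Benjamini-Hochberg over all 21448 rows), which is the meaning of "called" throughout. That is 21.4% of the members in sh1 and 23.2% in sh2. Over all rows 18.8% were called in sh1, 9.76% upward and 9.0% downward. For sh2 the share over all rows was 16.3%, 8.33% upward and 7.98% downward. The members' shares lie near these, and nothing is read from the gap. The median difference over the members was 0.03 on the log2 scale in sh1 and -0.04 in sh2, beside 0.02 in both lines over all rows. The count of higher members in sh1 was 4 without control array 1 or control array 2, and the count of lower members there was 3 without control array 3 or sh1 array 3.

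Some members had low signals, for which small differences cannot be told from the background. As a proxy for that background, the lower quartile of row means (a log2 signal of 4.21) was used. The 10 members whose mean lay under it in every group were the ligands WNT1, WNT2, WNT3A, WNT7A, WNT11 and WNT16, the receptor FZD10, the antagonists SFRP2 and WIF1, and the feedback inhibitor NKD1. Among the 42 members with an overall mean at or above that level, 26.2% were called in sh1 and 28.6% in sh2. Among all rows at or above it the shares were 24.1% and 21.1%. Such rows were 16090 of the 21448, so low signals were about as frequent over the whole array as among the members.

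**Figure D1:**
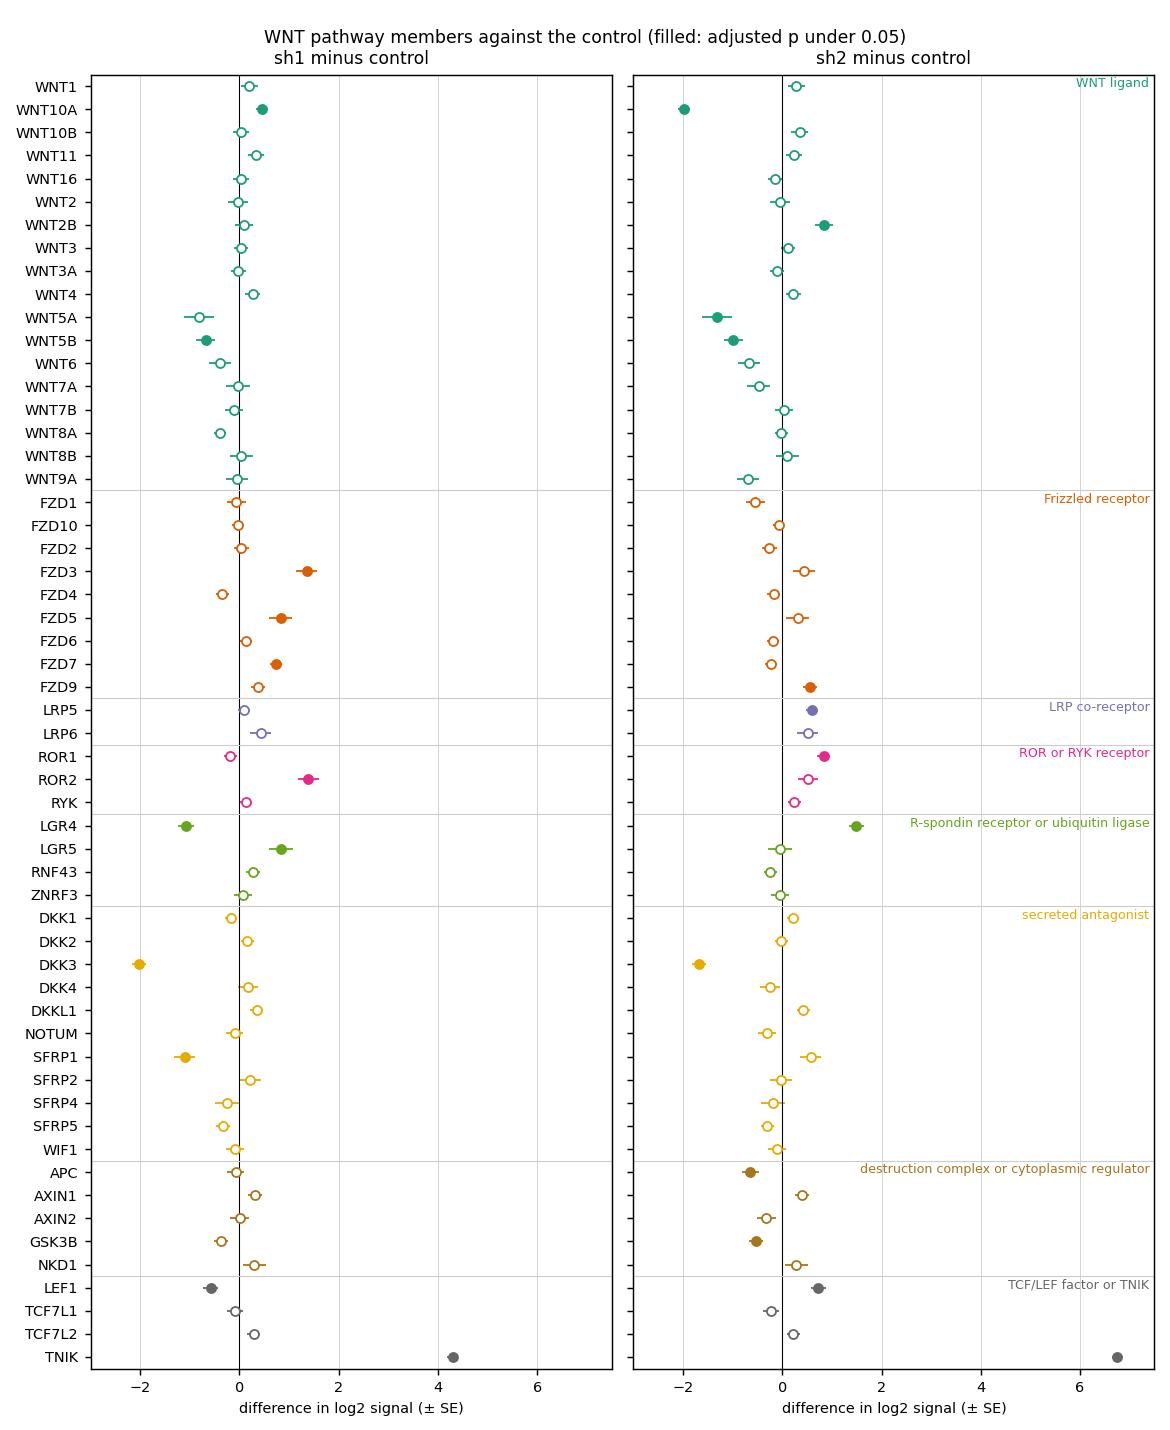
Difference in log2 signal from the control (x axis, ± SE) for each of the 56 members, ordered by role, in sh1 (left) and sh2 (right), with filled circles for an adjusted p under 0.05. Most members lie near 0, TNIK stands far to the right in both panels at 4.30 and 6.75, and DKK3 lies to the left in both at -2.03 and -1.69.

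Against the control, TNIK was higher in both, DKK3 and WNT5B were lower in both, and LEF1, LGR4 and WNT10A were called in both with opposite signs. Another 6 were called in sh1 alone and 7 in sh2 alone, 1 more (RNF43) was called only between the lines, and 36 were called in none of the 3 comparisons. The comparisons of sh1 and sh2 with the control share the control arrays, so their values are set side by side below, and the direct comparison of sh2 with sh1 gives the test of the difference.

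The sequences upstream of the gene that rose in both lines and of those that moved in opposite directions are shown. DKK3 and WNT5B, which fell in both lines, are not among them. RefSeq promoter windows on GRCh38.p14 matched 38 of the 56 members by symbol. The 250 bases before the annotated start are given 5′ to 3′ on the strand of the gene, from 1 window per gene (the 1st of 2 for TNIK). They lie at chr3:171460409-171460658 (minus strand) for TNIK, chr2:218880602-218880851 (plus strand) for WNT10A, chr11:27472791-27473040 (minus strand) for LGR4 and chr4:108166302-108166551 (minus strand) for LEF1. Capitals mark a GC box (GGGCGG, the core bound by Sp1-type factors) or a CCAAT box (CCAAT) on either strand.
TNIK: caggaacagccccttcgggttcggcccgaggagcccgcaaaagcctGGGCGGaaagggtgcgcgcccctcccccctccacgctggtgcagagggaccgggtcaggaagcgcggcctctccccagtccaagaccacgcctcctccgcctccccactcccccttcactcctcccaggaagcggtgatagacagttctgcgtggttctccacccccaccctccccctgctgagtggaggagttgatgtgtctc
WNT10A: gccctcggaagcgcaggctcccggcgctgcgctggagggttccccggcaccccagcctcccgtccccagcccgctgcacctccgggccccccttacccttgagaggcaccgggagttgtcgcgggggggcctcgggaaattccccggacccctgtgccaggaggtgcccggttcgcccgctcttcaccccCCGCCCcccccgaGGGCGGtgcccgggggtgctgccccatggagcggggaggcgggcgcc
LGR4: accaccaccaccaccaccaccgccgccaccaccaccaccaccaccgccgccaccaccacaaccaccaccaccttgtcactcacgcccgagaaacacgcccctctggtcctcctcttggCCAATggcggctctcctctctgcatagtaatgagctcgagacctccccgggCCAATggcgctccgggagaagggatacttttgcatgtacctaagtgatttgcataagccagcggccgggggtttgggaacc
LEF1: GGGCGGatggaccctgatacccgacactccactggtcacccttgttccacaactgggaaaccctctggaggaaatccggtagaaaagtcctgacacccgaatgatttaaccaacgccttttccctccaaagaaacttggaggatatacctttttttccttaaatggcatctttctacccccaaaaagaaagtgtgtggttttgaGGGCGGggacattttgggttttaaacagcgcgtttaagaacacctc

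All of these windows lack the TCF/LEF core CTTTGA on both strands, which is found in 3937 of 35114 windows of this length (11.2%) and in 1 of the 46 windows of members (2.17%), that of DKK1. CCAAT occurs at 2 places in the LGR4 window and in none of the other 3, against 32.0% of all windows and 34.8% of the members' windows. GGGCGG occurs in the TNIK, WNT10A and LEF1 windows, and in 42.6% of all windows and 71.7% of those of members. The searched letters do not overlap one another. Guanine and cytosine make up 77.6% of the WNT10A window, 67.6% of that of TNIK, 62.0% of that of LGR4 and 47.6% of that of LEF1. A match describes the letters only, and these windows were not assayed here.

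Among the WNT ligands, WNT5B fell in both lines and WNT10A moved in opposite directions. Of the 18 measured ligands, 1 rose and 1 fell in sh1 (11.1% called, beside 18.8% of all rows). In sh2, 1 rose and 3 fell (22.2%, beside 16.3%). WNT10A encodes a ligand known chiefly for its role in teeth, hair and skin. Its log2 signal was 9.18, 9.10 and 9.24 in the control arrays, 9.76, 9.55 and 9.56 in sh1, and 7.20, 7.23 and 7.12 in sh2. No array of any group overlapped another group, with sh1 slightly above the control and sh2 far below both. Against the control it changed in sh1 by 0.45 ± 0.12 (SE; limma, adjusted p = 0.0212), and the difference for sh2 was -1.99 ± 0.12 (adjusted p = 5.94e-07), a signal 3.97-fold lower. The rise in sh1 was not called without control array 1, control array 2 or sh1 array 1 (0.38 to 0.45, adjusted p = 0.0606 to 0.0848).

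WNT5A and WNT5B are closely related ligands that act largely without beta-catenin, through ROR receptors. WNT5A gave 5.87, 5.48 and 6.15 in the control, 5.21, 5.0 and 4.84 in sh1, and 3.89, 4.36 and 5.30 in sh2. The arrays of both lines lay below every control array, and the sh2 arrays were the most scattered, with 1 of them above all of sh1. The difference was -1.32 ± 0.30 (SE) in sh2 (limma, adjusted p = 0.0109) and -0.82 ± 0.30 in sh1, which was not called (adjusted p = 0.0851). The sh1 difference was called in a fit of those groups alone (adjusted p = 0.0147). WNT5B had a signal of 7.64 ± 0.17 (SD, n = 3) in the control, 6.96 ± 0.25 in sh1 and 6.65 ± 0.35 in sh2. In sh1 it fell by 0.68 (limma, adjusted p = 0.0298), and in sh2 it dropped by 0.99 (adjusted p = 0.0044). The sh1 call for WNT5B was lost without any 1 of the control arrays or sh1 array 3 (-0.73 to -0.53, adjusted p = 0.0545 to 0.113) and with the array number as a replicate block (adjusted p = 0.0564).

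WNT2B, a ligand that can signal through beta-catenin, was called higher in sh2, from 3.58 ± 0.17 (SD, n = 3) in the control to 4.42 ± 0.36, a difference of 0.84 (limma, adjusted p = 0.00985). Its control and sh1 means lay under the lower quartile of the rows, so this change started near the background. The other 14 ligands were not called in any comparison. Their differences included -0.69 for WNT9A and -0.67 for WNT6 in sh2 (adjusted p = 0.0551 and 0.0658), and -0.39 for WNT8A in sh1 (adjusted p = 0.0527).

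Of the 9 Frizzled receptors measured, FZD3, FZD5 and FZD7 rose in sh1 and FZD9 rose in sh2. The shares called were 33.3% and 11.1%, beside 18.8% and 16.3% of all rows, and nothing is read from so few genes. None was called lower in either line, while at an unadjusted p under 0.05 there was 1 lower in sh1 and 1 in sh2 (limma), and with limma's intensity trend the counts were 0 and 1. FZD3, a receptor best known from axon guidance and planar cell polarity, gave 5.17, 4.99 and 5.14 in the control, 6.20, 7.0 and 6.17 in sh1, and 5.63, 5.27 and 5.71 in sh2. All sh1 arrays were above all others, with array 2 the highest, and the sh2 arrays lay in between without overlap. FZD3 was higher in sh1 by 1.36 ± 0.21 (SE, limma, adjusted p = 0.000886), a 2.56-fold signal, and sh2 differed by 0.44 ± 0.21 without a call (adjusted p = 0.213). FZD7, a receptor often linked to beta-catenin signalling in epithelial tumours, rose by 0.74 ± 0.12 in sh1 (adjusted p = 0.00111), with a difference of -0.23 in sh2 (adjusted p = 0.24). FZD5, which the literature ties to RNF43-mutant pancreatic cancer cells, rose by 0.83 in sh1 (adjusted p = 0.0236), and FZD9 by 0.56 in sh2 (adjusted p = 0.0168).

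The calls for FZD5 and FZD9 were the less stable. That for FZD5 in sh1 was lost without any 1 of the control arrays or sh1 array 2 (0.61 to 0.85, adjusted p = 0.0569 to 0.0865), and that for FZD9 in sh2 without control array 1 or sh2 array 1 (0.47 in each, adjusted p = 0.0597 and 0.0777). FZD6 was not called, with a difference of 0.13 in sh1 (95% interval -0.14 to 0.40) and -0.18 in sh2 (-0.45 to 0.09). FZD1, FZD2, FZD4 and FZD10 were not called either, and FZD1 had the lowest value among them, -0.54 in sh2 (adjusted p = 0.078).

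Of the LRP co-receptors, LRP5 was called in sh2 and LRP6 in neither line. LRP5, which forms the signalling complex with Frizzled, had a signal of 11.71 ± 0.11 (SD, n = 3) in the control, 11.80 ± 0.04 in sh1 and 12.31 ± 0.12 in sh2. It rose by 0.61 in sh2 (limma, adjusted p = 0.00525) and differed by 0.09 in sh1 (adjusted p = 0.681). LRP6 had differences of 0.43 (sh1) and 0.51 (sh2) (adjusted p = 0.197 and 0.131), neither of them called.

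The ROR receptors, kinase-like receptors for WNT5A, split between the lines. ROR2 had a log2 signal of 6.56, 6.08 and 6.33 in the control, 7.95, 7.42 and 7.77 in sh1, and 7.13, 6.95 and 6.45 in sh2. Every sh1 array was above every other array, whereas the sh2 arrays overlapped the control. ROR2 rose by 1.39 ± 0.20 (SE) in sh1 (limma, adjusted p = 0.000551), a 2.62-fold signal, and its difference in sh2 was 0.52 ± 0.20 (adjusted p = 0.116). ROR1 had a signal of 11.73 ± 0.03 (SD, n = 3) in the control, 11.54 ± 0.21 in sh1 and 12.56 ± 0.04 in sh2. It rose in sh2 by 0.83 ± 0.13 (adjusted p = 0.00109) and differed in sh1 by -0.19 (adjusted p = 0.385). RYK, the third of these receptors, was not called in either line (0.13, 95% interval -0.14 to 0.40, and 0.24, -0.03 to 0.52).

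LGR4, the receptor through which R-spondins strengthen WNT signals, fell in sh1 and rose in sh2. Its log2 signal was 11.34, 11.44 and 11.24 in the control, 10.45, 10.22 and 10.12 in sh1, and 12.53, 12.92 and 13.05 in sh2. The 3 groups did not overlap, and the control lay between the lines. LGR4 fell by 1.08 ± 0.16 (SE) in sh1 (limma, adjusted p = 0.000543). For sh2 the rise was 1.49 ± 0.16 (adjusted p = 6.04e-05). LGR5, the related stem cell marker, was called in sh1 from a low base, 3.52 ± 0.16 (SD, n = 3) in the control against 4.36 ± 0.57 (difference 0.84, adjusted p = 0.0298). Its sh2 mean was 3.48 ± 0.21, and only in sh1 was the mean above the lower quartile of the rows. Leaving out any 1 control array, sh1 array 1 or sh1 array 2 ended that LGR5 call (0.55 to 0.91, adjusted p = 0.0524 to 0.101). The ligases RNF43 and ZNRF3 were not called against the control, with differences of 0.27 and 0.08 for sh1 and -0.25 and -0.05 for sh2.

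Among the secreted antagonists DKK3 was the member that fell in both lines. DKK3 is a divergent member of the Dickkopf family that is reduced in several tumour types. It gave 12.21, 11.88 and 12.09 in the control, 10.25, 9.84 and 10.00 in sh1, and 10.39, 10.44 and 10.29 in sh2. Both lines lay far below the control, and all sh2 arrays were above all sh1 arrays by a small margin. The fall was 2.03 ± 0.14 (SE) in sh1, which made the signal 4.08-fold lower (limma, adjusted p = 2.24e-06). In sh2 the change was -1.69 ± 0.14, a signal 3.22-fold lower (adjusted p = 1.12e-05). The 20 alternative settings kept both DKK3 calls, with differences of -2.14 to -1.94 in sh1 and -1.78 to -1.61 in sh2.

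SFRP1, a soluble decoy that resembles the ligand-binding part of Frizzled, was lower in sh1. It gave 7.51, 6.97 and 6.90 in the control, 6.21, 5.69 and 6.17 in sh1, and 7.96, 7.72 and 7.42 in sh2. The sh1 arrays lay below all others, and the sh2 arrays overlapped the highest control array. SFRP1 changed by -1.10 ± 0.21 (SE) in sh1 (limma, adjusted p = 0.00296), and its difference of 0.57 ± 0.21 in sh2 was not called (adjusted p = 0.0895). In sh2 it was called with the array number as a replicate block (adjusted p = 0.045) and without control array 1 (0.77, adjusted p = 0.0366).

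The other 9 antagonists were not called in any comparison. DKK1, the classical blocker of LRP5 and LRP6 and itself a target of beta-catenin, was at 14.82 ± 0.07 (SD, n = 3) in the control and differed by -0.18 in sh1 (95% interval -0.43 to 0.08) and 0.21 in sh2 (-0.05 to 0.47). Between the lines DKK1 was higher in sh2 by 0.39 (0.13 to 0.64, limma, adjusted p = 0.0572). That difference was called with limma's intensity trend (adjusted p = 0.00197) and with rows under the lower quartile left out (adjusted p = 0.0359). The group also includes DKKL1, which the rule takes in by its name although it is not an established WNT antagonist, with a difference of 0.35 in sh1 (adjusted p = 0.108) and of 0.42 in sh2 (adjusted p = 0.0567). SFRP2, SFRP4, SFRP5, WIF1 and NOTUM, an enzyme that removes the lipid of WNT proteins, had low signals and differences between -0.33 and 0.21.

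**Figure D2:**
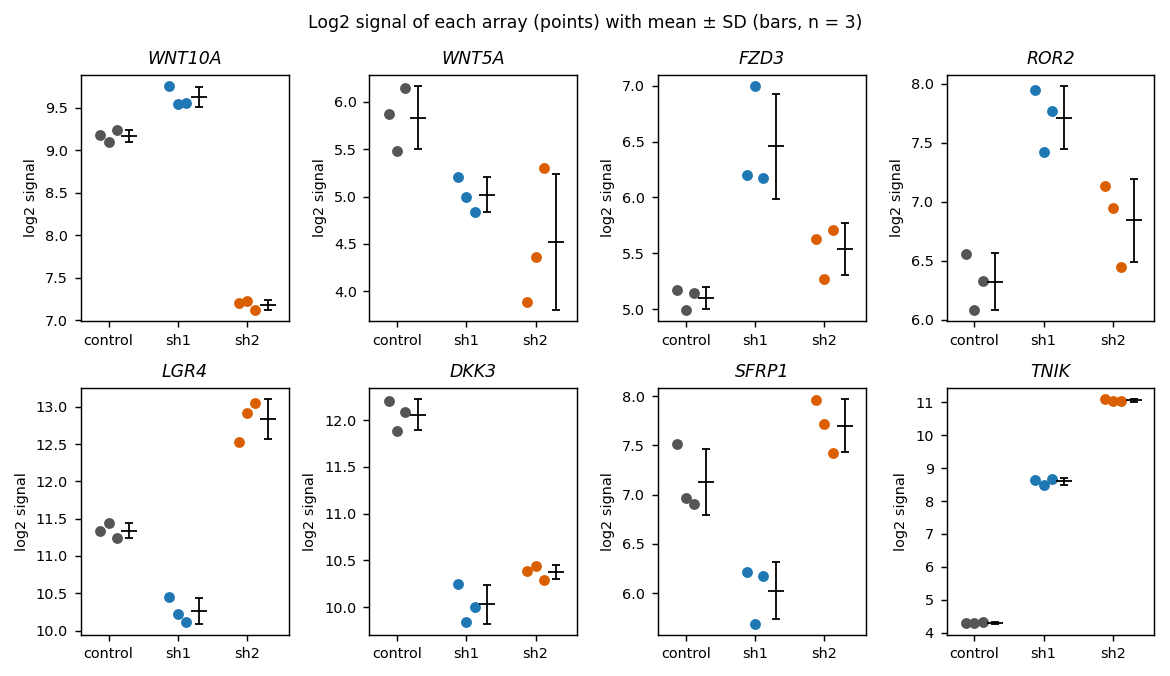
Log2 signal (y axis, own scale per panel) of each array for the 8 members with a called difference of at least 1 in either line, with the mean ± SD of the 3 arrays beside the points. Groups are separate for WNT10A, FZD3, LGR4, DKK3 and TNIK. LGR4 lies at 10.26 in sh1, 11.34 in the control and 12.83 in sh2.

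The 5 members of the destruction complex or other cytoplasmic regulators were APC, GSK3B, AXIN1, AXIN2 and the feedback inhibitor NKD1. Of these, APC and GSK3B fell in sh2 (40% called, beside 16.3% of all rows). In sh1, 0 of 5 were called, beside 18.8% of all rows. There, 1 was higher and 1 lower at an unadjusted p under 0.05 (limma), and 1 was called with its intensity trend. Nothing is read from so few genes. GSK3B, the kinase that phosphorylates beta-catenin for degradation, had a signal of 11.44 ± 0.14 (SD, n = 3) in the control, 11.06 ± 0.12 in sh1 and 10.91 ± 0.16 in sh2. It fell in sh2 by 0.53 (limma, adjusted p = 0.0198), and its difference in sh1 was -0.38 (adjusted p = 0.0812). APC, the scaffold of the complex, fell by 0.64 in sh2 (adjusted p = 0.0227), with a difference of -0.08 in sh1 (adjusted p = 0.825). The GSK3B call in sh2 was lost on leaving out either control array 1 or 3, or either sh2 array 1 or 3 (-0.52 to -0.47, adjusted p = 0.0534 to 0.0767), and the APC call without control array 3, sh2 array 1 or sh2 array 2 (-0.60 to -0.47, adjusted p = 0.0682 to 0.0839). AXIN1, the limiting scaffold, differed by 0.31 and 0.40 (adjusted p = 0.146 and 0.0699). AXIN2, a feedback inhibitor whose transcript is a common readout of beta-catenin activity, had a low signal (4.92 ± 0.25, SD, n = 3, in the control) and differences of 0.00 in sh1 (95% interval -0.42 to 0.43) and -0.32 in sh2 (-0.75 to 0.10).

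TNIK, a kinase that binds the TCF4 and beta-catenin complex, had the largest difference of all members in both lines. Its log2 signal was 4.28, 4.30 and 4.33 in the control, close to the lower quartile of the rows. It was 8.65, 8.48 and 8.67 in sh1 and 11.10, 11.04 and 11.03 in sh2. The groups were far apart and the arrays within a group nearly equal. TNIK was 19.7-fold higher in sh1 than in the control (4.30 ± 0.11 SE on the log2 scale, limma, adjusted p = 1.62e-09). In sh2 it was 108-fold higher (6.75 ± 0.11, adjusted p = 2.13e-11). The control mean lies near the proxy for background (4.21), so both folds describe measured signals, and any background signal in the control would make them too small. Of its relatives, both named after their values were seen, MAP4K4 fell in sh1 by 0.37 (adjusted p = 0.0447) and in sh2 by 0.39 (adjusted p = 0.0409). MINK1 had differences of -0.49 and -0.10 (adjusted p = 0.104 and 0.808).

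LEF1, a TCF/LEF factor that is itself induced by beta-catenin in many cells, was lower in sh1 and higher in sh2. LEF1 had a signal of 6.23 ± 0.23 (SD, n = 3) in the control, 5.65 ± 0.16 in sh1 and 6.96 ± 0.14 in sh2. LEF1 fell by 0.58 ± 0.15 (SE) in sh1 (limma, adjusted p = 0.0192), whereas sh2 showed a rise of 0.73 ± 0.15 (adjusted p = 0.00647). The sh1 call was lost without control array 2, control array 3, sh1 array 1 or sh1 array 3 (-0.59 to -0.46, adjusted p = 0.05 to 0.0786). TCF7L1 and TCF7L2 were not called, and their 95% intervals in sh1 were -0.44 to 0.26 and -0.02 to 0.59.

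The direct comparison of sh2 with sh1 asks which members differ between cells with one and with the other hairpin, and it does not use the control arrays except for the shared spread. LGR4, TNIK, SFRP1, LEF1 and ROR1 were higher in sh2 by more than 1 on the log2 scale, and WNT10A was lower by more than that. In all, 13 of 56 members (23.2%) were called, 7 higher and 6 lower in sh2, where 11.3% of all rows were called (5.73% higher and 5.57% lower). Among members at or above the lower quartile the share was 26.2%, beside 14.5% of all such rows. The members' median difference was -0.06, beside -0.01 over all rows.

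LGR4 was 5.94-fold higher in sh2 than in sh1 (2.57 ± 0.16 SE, limma, adjusted p = 1.13e-06) and TNIK 5.49-fold higher (2.46 ± 0.11, adjusted p = 1.23e-07). WNT10A was 5.43-fold lower (-2.44 ± 0.12, adjusted p = 1.92e-07). SFRP1 differed by 1.68 ± 0.21 (adjusted p = 0.000261), LEF1 by 1.31 ± 0.15 (adjusted p = 0.000146) and ROR1 by 1.02 ± 0.13 (adjusted p = 0.000338). Each of these 6 genes had separate arrays in the 2 lines and was called in every alternative setting. Of the Frizzled and ROR receptors called higher in sh1, which share those arrays with this comparison, 3 were called lower in sh2 than in sh1, namely FZD7 by -0.97 (adjusted p = 0.000251), FZD3 by -0.92 (adjusted p = 0.0156) and ROR2 by -0.87 (adjusted p = 0.0168). FZD5, which was also called in sh1, differed by -0.52 with overlapping arrays and was not called (adjusted p = 0.185).

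Smaller differences between the lines were those of LGR5 (-0.89, limma, adjusted p = 0.0342), WNT2B (0.74, adjusted p = 0.0243), RNF43 (-0.52, adjusted p = 0.0256) and LRP5 (0.51, adjusted p = 0.0179). RNF43, the ligase that is mutated in part of pancreatic cancers, was the 1 member called here but not against the control. Single arrays decided several of these calls. FZD3 lost its call without sh2 array 2 (-0.79, adjusted p = 0.0674), ROR2 without sh1 array 1, sh1 array 3 or sh2 array 3 (-0.84 to -0.67, adjusted p = 0.0574 to 0.0698), and LRP5 without sh1 array 1 or sh2 array 2 (0.45 to 0.50, adjusted p = 0.0606 to 0.0764). RNF43 lost it without sh1 array 1, sh1 array 3, sh2 array 1 or sh2 array 2 (-0.52 to -0.44, adjusted p = 0.0628 to 0.101). WNT2B lost it without sh1 array 2, sh1 array 3, sh2 array 1 or sh2 array 3 (0.62 to 0.70, adjusted p = 0.0825 to 0.0915). LGR5 lost it without control array 3, sh1 array 1, sh1 array 2 or any 1 sh2 array (-0.96 to -0.59, adjusted p = 0.0512 to 0.117). A limma fit of sh1 and sh2 alone also ended the calls for LGR5 (adjusted p = 0.0701) and RNF43 (adjusted p = 0.0594). With limma's intensity trend RNF43 had an adjusted p of 0.0535. The count of members lower in sh2 than in sh1 was 3 without sh1 array 1 or sh2 array 2.

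**Figure D3:**
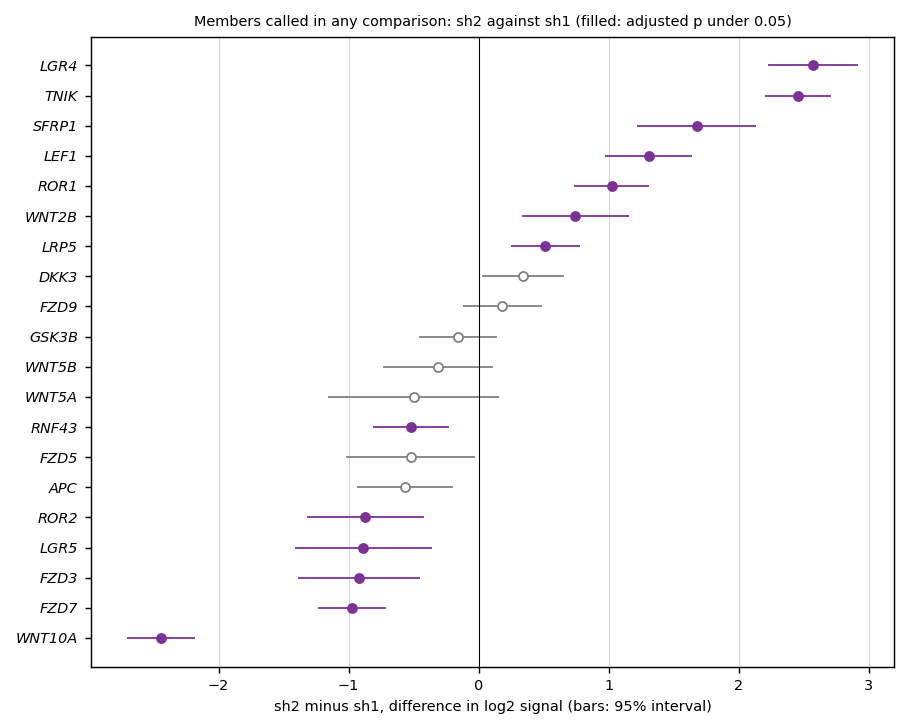
Difference in log2 signal between sh2 and sh1 (x axis, bars for the 95% interval) for the 20 members called in any comparison, with filled circles for an adjusted p under 0.05. LGR4 (2.57), TNIK (2.46) and SFRP1 (1.68) lie highest and WNT10A (-2.44) lowest, while DKK3, GSK3B, WNT5A and WNT5B are not called.

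Since each group is 1 clone, the members were also set beside their chromosomal neighbours. For each member the median difference of the 40 nearest genes in RefSeq order with a row mean above the median was taken. TNIK, DKK3, WNT10A, LGR4, WNT5A and WNT5B had neighbour medians between -0.07 and 0.12 in both lines, small beside their own differences. APC lies on chromosome 5 among genes with a median of -0.49 in sh1 and -0.70 in sh2, and after its neighbours were subtracted its sh2 difference was 0.06 (adjusted p = 0.857). LGR5, on chromosome 12, had a neighbour median of 0.40 in sh1, and subtraction left a difference of 0.41 there (adjusted p = 0.289). The same subtraction ended the calls for LEF1 in sh1 (-0.43, adjusted p = 0.066), FZD5 in sh1 (0.70, adjusted p = 0.0598) and FZD9 in sh2 (0.40, adjusted p = 0.0835). It also added calls. In sh2 these were FZD7 (-0.46, adjusted p = 0.0309), WNT6 (-0.73, adjusted p = 0.0402), WNT9A (-0.74, adjusted p = 0.0421), WNT8A (0.68, adjusted p = 0.00781) and FZD10 (-0.37, adjusted p = 0.0445), and members lower in sh2 numbered 9 in place of 6. In sh1 they were WNT5A (-0.86, adjusted p = 0.0411) and FZD10 (-0.53, adjusted p = 0.00668), and between the lines WNT8A (0.63, adjusted p = 0.0134). FZD10 lies under the lower quartile in every group, and before subtraction it differed by -0.02 in sh1 and -0.08 in sh2. WNT8A, on chromosome 5, differed by -0.02 in sh2 before subtraction, where its neighbours had a median of -0.66. Its call in sh2 therefore came from the subtraction of neighbours that were lower. Between the lines WNT8A differed by 0.38 before subtraction (limma, adjusted p = 0.0869).

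**Figure D4:**
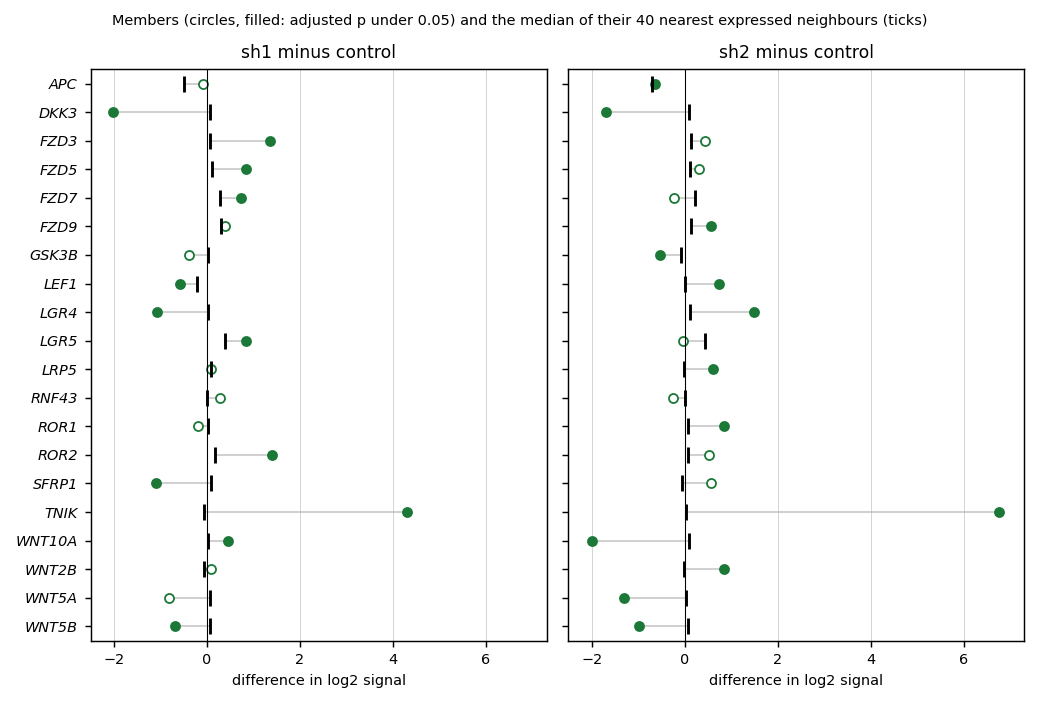
Difference in log2 signal (x axis) of the 20 members called in any comparison (circles, filled for an adjusted p under 0.05) and the median difference of their 40 nearest expressed neighbours (ticks), in sh1 (left) and sh2 (right). For APC in sh2 the circle at -0.64 and the tick at -0.70 nearly coincide, while TNIK, DKK3 and LGR4 lie far from their ticks.

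The wider pathway was described through 6 further lists of genes outside the members. Over these lists together 22 genes were called in sh1 and 22 in sh2. For each list below, the shares over all rows to set beside its counts are 18.8% in sh1 and 16.3% in sh2. Among rows at or above the lower quartile they are 24.1% and 21.1%. The lists are small, and nothing is read from their counts. Ligand export was represented by WLS, the carrier that brings WNT proteins to the cell surface, which fell by 1.06 in sh1 (limma, adjusted p = 7.84e-05) and differed by 0.29 in sh2 (adjusted p = 0.136). Of the 10 genes for ligand secretion and R-spondins, 2 were higher and 1 lower in sh1 and 0 were called in sh2, where 1 was higher and 1 lower at an unadjusted p under 0.05 (limma), and 1 called with its intensity trend (median 0.12 in both, beside 0.02 over all rows). The other called genes were the glypicans GPC6 (1.20 in sh1, adjusted p = 0.00171) and GPC3 (0.78 in sh1, adjusted p = 0.0433). The means of GPC3 (3.29 in the control, 4.07 in sh1 and 3.38 in sh2) all lie under the lower quartile of the rows, near the background, and its call was lost on leaving out any 1 array other than sh1 array 3 (0.50 to 0.82, adjusted p = 0.05 to 0.143). With the array number as a replicate block GPC3 had an adjusted p of 0.0596.

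Of 10 membrane modulators, 2 were higher and 1 lower in sh1, whereas sh2 had 2 higher and 2 lower (median 0.09 and -0.03). PTK7, a pseudokinase co-receptor of planar cell polarity, fell by 1.16 in sh1 (limma, adjusted p = 0.00052) and by 1.95 in sh2 (adjusted p = 1.24e-05). Its neighbour median was -0.71 in sh1 and -0.67 in sh2, and after subtraction the sh1 difference was -0.44 (adjusted p = 0.0817). TPBG, a membrane protein that inhibits beta-catenin signals, rose by 0.59 and 0.92 (adjusted p = 0.00386 and 0.000217). TSPAN12, a co-factor of FZD4, was called higher in sh2 (0.99, adjusted p = 0.0471), and KREMEN1, a receptor for DKK1, lower (-0.46, adjusted p = 0.0408). Both calls were fragile: TSPAN12 kept its call only without control array 3 among the arrays left out (0.60 to 1.10, adjusted p = 0.058 to 0.135 for the rest), and KREMEN1 only without sh1 array 2 or sh2 array 1 (-0.50 to -0.35, adjusted p = 0.0542 to 0.151 for the rest). The replicate block gave TSPAN12 an adjusted p of 0.0533.

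Of 21 cytoplasmic signal transducers, 2 were higher and 2 lower in sh1, whereas sh2 had 3 higher and 3 lower (median 0.02 and -0.02). DACT2, which binds Dishevelled, rose by 1.39 in sh2 (limma, adjusted p = 0.000166), with -0.47 in sh1 (adjusted p = 0.0784). NLK, a kinase that acts on TCF/LEF factors, fell by 0.79 in sh2 (adjusted p = 0.00102). GSK3A, the paralog of GSK3B, rose in sh1 by 0.63 (adjusted p = 0.00514) and in sh2 by 0.54 (adjusted p = 0.0136), while GSK3B fell in sh2. NKD2, a Dishevelled inhibitor, rose by 0.66 in sh1 (adjusted p = 0.0266). The NKD2 call was lost without any 1 of the control arrays, sh1 array 1 or sh1 array 2 (0.50 to 0.71, adjusted p = 0.0505 to 0.104), and the GSK3A call in sh2 without control array 2 (0.49, adjusted p = 0.0561).

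Of 14 nuclear cofactors, 2 were higher and 0 lower in sh1 (1 lower at an unadjusted p under 0.05 in limma, 0 called with its intensity trend), whereas sh2 had 2 higher and 2 lower (median 0.13 and 0.01). TLE4, a corepressor of TCF/LEF factors, fell by 1.80 in sh2 (limma, adjusted p = 2.39e-05) and differed by 0.31 in sh1 (adjusted p = 0.251). TLE1, its relative, was called lower in sh2 (-0.50, adjusted p = 0.0345), a call lost without control array 1 or any 1 sh2 array (-0.53 to -0.36, adjusted p = 0.063 to 0.14). The acetyltransferase CREBBP rose by 1.00 and 0.51 (adjusted p = 7.87e-05 and 0.0088), and PYGO1, which links beta-catenin to chromatin, by 0.81 and 0.93 (adjusted p = 0.00999 and 0.00533). The neighbours of CREBBP had medians of 0.61 and 0.51, and those of PYGO1 0.81 and 0.32. With neighbours subtracted, CREBBP was at 0.09 in sh2 (adjusted p = 0.686) and PYGO1 at -0.02 in sh1 (adjusted p = 0.966).

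Of 12 planar cell polarity genes, 2 were higher and 1 lower in sh1, whereas sh2 had 1 higher and 3 lower (median 0.04 and -0.22). FAT4, a giant cadherin, rose in both lines by 1.98 and 1.44 (limma, adjusted p = 0.000125 and 0.00148). PRICKLE1, a core polarity protein, rose by 1.5 in sh1 (adjusted p = 6.74e-05) and differed by -0.53 in sh2 (adjusted p = 0.0532). The formin DAAM1 and the cadherin CELSR1 fell in sh2, by 1.59 and 0.94 (adjusted p = 0.000242 and 0.00245).

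Among 18 textbook target genes of beta-catenin, 3 were higher and 4 lower in sh1, whereas sh2 had 1 higher and 3 lower (median -0.15 and -0.20). Other pathways regulate these genes as well. MYC fell by 1.18 in sh1 (limma, adjusted p = 0.000696), with -0.44 in sh2 (adjusted p = 0.127). TBX3 fell by 0.80 in sh2 (adjusted p = 0.00434), MMP7 by 0.87 in sh2 (adjusted p = 0.0173), and TNFRSF19 by 0.69 and 0.78 (adjusted p = 0.0397 and 0.0252). The remaining genes called lower in sh1, named after their values were seen, were PPARD (-0.73, adjusted p = 0.00931) and CD44 (-0.52, adjusted p = 0.00689). In sh2 they differed by -0.52 and -0.22 without a call (adjusted p = 0.0559 and 0.233). The called genes that were higher, named after their values were seen, were the Notch ligand JAG1 in both lines (0.47, adjusted p = 0.015, and 0.63, adjusted p = 0.00334) and, in sh1, the cyclin CCND1 (0.40, adjusted p = 0.0338) and the membrane protein PROM1 (0.50, adjusted p = 0.0284). The MMP7 call was lost on leaving out either control array 2 or 3, or either sh2 array 1 or 2 (-0.83 to -0.74, adjusted p = 0.0594 to 0.073). For TNFRSF19 the sh1 call was lost without control array 1, any 1 sh1 array or sh2 array 1 (-0.75 to -0.42, adjusted p = 0.0512 to 0.116) and with the replicate block (adjusted p = 0.0505), and the sh2 call without control array 1, sh2 array 1 or sh2 array 2 (-0.75 to -0.51, adjusted p = 0.0654 to 0.0883).

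**Figure D5:**
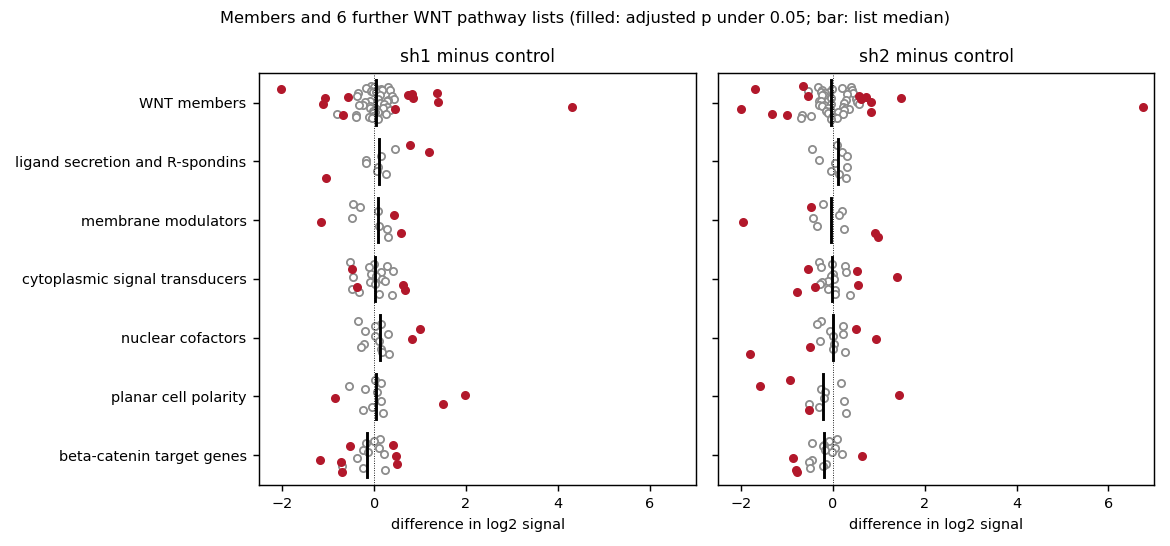
Difference in log2 signal (x axis) of each gene (circle, filled for an adjusted p under 0.05) of the 56 members and the 6 further lists (y axis), with a bar at each list's median, in sh1 (left) and sh2 (right). The medians lie between -0.15 and 0.13 in sh1 and between -0.22 and 0.12 in sh2, and called genes lie on both sides of 0 in most lists.

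Array medians lay between 6.57 and 6.65, arrays of a group correlated across rows at r = 0.994 to 0.996 and arrays of different groups at 0.982 to 0.988. All 10 epithelial markers listed were measured and none had a group mean under the lower quartile, but their mean level differed between groups (9.91 to 9.95 over the control arrays, 10.54 to 10.61 in sh1 and 10.12 to 10.22 in sh2). Single epithelial markers went both ways: in sh1 EPCAM (4.94), CDH1 (2.03), KRT18 (1.21) and KRT8 (0.71) were called higher and KRT19 (-1.69) and GATA6 (-0.80) lower, and in sh2 KRT18 (1.27), EPCAM (0.74) and KRT8 (0.70) higher and KRT19 (-0.57) and CDH1 (-0.52) lower. Of the fibroblast markers, 7 of 8 were measured, LUM and FAP lay under the lower quartile in every group, and the mean level of the 7 was 5.75 to 5.92 in the control, 5.06 to 5.36 in sh1 and 5.07 to 5.24 in sh2. COL1A1 fell from 9.84 by 3.19 in sh1 and by 3.48 in sh2, COL1A2 fell from 10.36 by 1.18 and 1.16, and DCN, PDGFRA and PDGFRB were not called. The part of these shifts in the differences of the WNT genes was not tested. The endothelial markers PECAM1 and KDR and the leukocyte marker LYZ lay under the lower quartile in every group. Others did not: VWF was at 6.09 in the control and CD68 at 12.40, where CD68 was called lower in sh1 (-0.48). PTPRC was called lower in both lines (-0.70 and -0.65), from 4.64 in the control to 3.94 in sh1 and 3.99 in sh2. Both of its lower means lie under the lower quartile, near the background.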

How the data were processed

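Total RNA (100 ng) from 9 samples of 3 groups was labelled with biotin for 1-colour whole-transcript arrays, per the labels' protocols. The authors deposited 1 table of log2 signals, summarised and normalized with Transcriptome Analysis Console per the submitters' processing notes, with version and settings not given in the sources used here. That the scale is log2 was read from the range (2.03 to 18.57) and the near-equal arrays. Values were used as deposited. Gene symbols came from the platform annotation (17709 of 21448 rows with 1 symbol, 3739 without). Differences were tested over all 9 arrays with limma 3.58.1 in R 4.3.3 (linear model, eBayes, Benjamini-Hochberg over all rows, called at an adjusted p under 0.05), checked on simulated data. Neighbours came from RefSeq gene order. Motifs were searched as exact letters on both strands.

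The members and the pathway lists were chosen with earlier results of these data known. Values of every array are given for members called against the control with a log2 difference of at least 1, and up to 4 called genes are named per list. Further list genes are marked as named after their values were seen. No source used here says whether array numbers pair the samples, and they were not used as pairs in the main test. Deviations of same-numbered arrays correlated at -0.0358 to 0.180, with 2 of 9 pairs over 0.1. The pairs of arrays numbered 1 were the highest (0.0856, 0.180 and 0.122). Such correlations cannot show whether samples were paired. The alternatives were other scalings, filters, priors, samples, thresholds, a replicate block, neighbour correction and leaving out each array. Neighbour correction with neighbours above the median signal was chosen after seeing the data, and values after subtraction of neighbours in the text come from it. It subtracted a neighbour median from each array before the fit, with 1 row per gene. The neighbour medians printed are those of the group differences. A corrected difference can therefore depart from the difference minus the printed median.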

Additional observations from a re-analysis of the deposited data

Results flagged for a closer look

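The direct test of sh2 against sh1 was past an adjusted p of 0.05 (limma) for 13 of the 56 members, so for these the effect of one hairpin line against the control differed from that of the other. The log2 differences, sh2 minus sh1, were 2.57 for LGR4, 2.46 for TNIK, 1.68 for SFRP1, 1.31 for LEF1, 1.02 for ROR1, 0.74 for WNT2B and 0.51 for LRP5, and -2.44 for WNT10A, -0.97 for FZD7, -0.92 for FZD3, -0.89 for LGR5, -0.87 for ROR2 and -0.52 for RNF43. Clone and hairpin cannot be told apart in these groups.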

How the results depend on the processing

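Of 38 called pairs of a member and a comparison, 23 kept direction and call under all of the 20 alternatives that held their row, and 15 lost the call under at least 1. One of the alternatives was the same fit at an adjusted p under 0.01, which by itself ended those 15 calls. WNT5A in sh2 lost its call under that threshold only, and its adjusted p was at most 0.0467 in the other settings. Of 130 uncalled pairs, 22 passed under at least 1. At an adjusted p under 0.01, 2425, 1921 and 1331 of all array features were called in sh1, in sh2 and between the lines. Members higher in sh1 then numbered 4, and members lower numbered 3 in sh1, 3 in sh2 and 2 between the lines. Leaving out single arrays gave 4 to 7 members higher and 3 to 6 lower in sh1, and 3 to 7 lower in sh2 than in sh1. With neighbours above the median signal subtracted, APC in sh2 turned to 0.0561 and PYGO1 in sh1 to -0.0161, where the neighbours' own medians were as large as the difference. The array number was also used as a replicate block, although no source used here states such a pairing. Members called higher and lower then numbered 7 and 5 in sh1, 8 and 7 in sh2, and 7 and 7 between the lines. The causes of lost or turned calls were not tested. The 3 arrays per group, each group 1 clone, limit precision, and signals near the background cannot show small differences.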
